A study of Mus musculus with 6 samples.

Results

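The genes described here encode the enzymes that cut the extracellular matrix, their dedicated inhibitors, and the enzymes that crosslink collagen and elastin. They were chosen by symbol and comprise 56 of the 27131 gene rows of the table: 23 matrix metalloproteinases (Mmp), 4 tissue inhibitors of metalloproteinases (Timp), 19 Adamts proteases, 5 Adamts-like genes (Adamtsl) and 5 lysyl oxidases (Lox and Loxl1 to Loxl4). The tissue was the levator ani with the bulbocavernosus, androgen-sensitive striated muscles of the pelvis, whose RNA was sequenced. The samples were 3 knock-in mice with the genotype label 113Q, which model SBMA, and 3 wild-type mice (WT). SBMA stands for spinal and bulbar muscular atrophy, a disease caused by an expanded glutamine repeat in the androgen receptor. All 6 mice were 14 weeks old and fed standard chow, and the labels give neither strain nor sex. The question is how the knock-in changes gene expression in these muscles.

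Metalloproteinases are zinc-dependent enzymes made as inactive precursors. Some are secreted and others, the membrane types such as Mmp14, sit on the cell surface. Timp proteins bind their active site, and Timp2 also takes part in the activation of the gelatinase Mmp2 by Mmp14. Adamts enzymes trim procollagens and cut proteoglycans such as versican, Adamtsl proteins lack the protease domain and many bind fibrillin microfibrils, and lysyl oxidases convert lysines so that collagen and elastin fibres become covalently joined. In skeletal muscle most of this machinery is known from fibroblasts, vessels and immune cells, with a contribution from myogenic cells.

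The libraries held 67897870, 70531556 and 73873481 estimated counts in 113Q and 43581087, 68983982 and 65405514 in WT, and the 56 members took between 0.0951% and 0.110% of them in 113Q and between 0.0482% and 0.0657% in WT. Levels are given as CPM, counts scaled to a common library size that includes TMM factors (one composition factor per library), which were 1.26 to 1.32 in 113Q and 0.768 to 0.794 in WT. Library totals in place of these factors shifted the median of all genes by 0.72 on the log2 scale, so changes are relative to the other genes, and a fall smaller than this on the log2 scale can change its sign. The 12 myofibre markers checked against the tissue label all fell, with summed levels of 53196 to 63844 CPM in 113Q and 212660 to 237970 CPM in WT. Their log2 fold changes ran from -4.55 for Myh1 to -0.93 for Ttn and -0.82 for Neb. The list holds fast-fibre genes such as Myh1 and Actn3 and no slow-fibre myosin or troponin, so the sum is not a measure of all fibres. Summed fibroblast markers, of which Gsn was the largest (1543 ± 50 CPM in 113Q and 1387 ± 298 CPM in WT), were at 1867 to 2057 CPM in 113Q and 1408 to 2105 CPM in WT, endothelial markers at 388 to 400.4 CPM in 113Q and 556 to 682 CPM in WT, and satellite cell markers at 124 to 148 CPM in 113Q and 77.6 to 81.1 CPM in WT. The 12 smooth muscle and pericyte markers summed to 6306 to 7076 CPM in 113Q and 7105 to 7643 CPM in WT, most of it Des, which muscle fibres also express; 1 rose and 2 fell. The genes of this list went different ways. Acta2 rose, with 867, 566 and 425 CPM in 113Q and 46.4, 127 and 184 CPM in WT (adjusted p = 0.037), and Myh11, Tagln and Cnn1 did not pass but had every 113Q library above every WT library. Lmod1, Rgs5, Pdgfrb, Cspg4, Kcnj8 and Smtn overlapped between the groups and did not pass, and Des and Synpo2 fell. Smtn averaged 217 ± 5.72 CPM in 113Q and 215 ± 15.2 CPM in WT. The part of Acta2, Myh11, Tagln and Cnn1 in the members that rose was not tested. Epithelial transcripts (Epcam of at least 1 CPM) were present in 113Q mice 2 and 3 and in WT mouse 2. In these bulk samples fewer cells of a type, less RNA per cell and a change in the markers themselves cannot be told apart.

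Single mice stood apart from their group in these genes. WT mouse 1 had the lowest WT level for 30 of the 46 members that passed the filter on low counts (65.2%), against 35.9% of all 16960 genes tested. WT mouse 3 had the highest WT level for 29 of them (63.0%), against 29.0% of all genes. In 113Q, mouse 1 was the highest for 25 members (54.3%, against 38.8% of all genes) and mouse 2 the lowest for 25 (54.3%, against 29.7%). Summed fibroblast markers had the same order at the extremes, with 2057, 1867 and 1984 CPM in 113Q and 1408, 1831 and 2105 CPM in WT. Summed macrophage markers were likewise highest in 113Q mouse 1 and WT mouse 3 and lowest in 113Q mouse 2 and WT mouse 1. Acta2 was also highest in 113Q mouse 1 and lowest in WT mouse 1, but its lowest 113Q level was in mouse 3. The part of these markers in the spread of the members was not tested.

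Of the 46 members tested, 8 rose (17.4%) and 4 fell (8.70%) in 113Q at an adjusted p below 0.05, where 16.5% of all tested genes rose and 18.1% fell. In either direction 12 members passed, 26.1%, against 34.6% of all genes, so the members' share lay below that of all genes. The median log2 fold change was 0.16 over the 46 members and 0.01 over all genes. Those that rose were Timp2, Mmp11, Adamts6, Adamts15, Adamts17, Adamts20, Adamtsl5 and Loxl1, and those that fell were Mmp8, Adamts5, Adamts7 and Adamtsl4. Of the genes that rose, 3 did so by 2 times or more (5.33% of all genes tested), and of those that fell, 2 did (5.22% of all genes). The 3 113Q libraries were all above the 3 WT libraries for 14 members and all below for 6, against 25.1% and 24.8% of all genes tested, 49.9% in either direction. Only Timp2, Adamtsl5 and Adamtsl4 kept their call in each of the alternative analyses run. The remaining 10 members had too few counts to test and are given with their families.

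**Figure D1:**
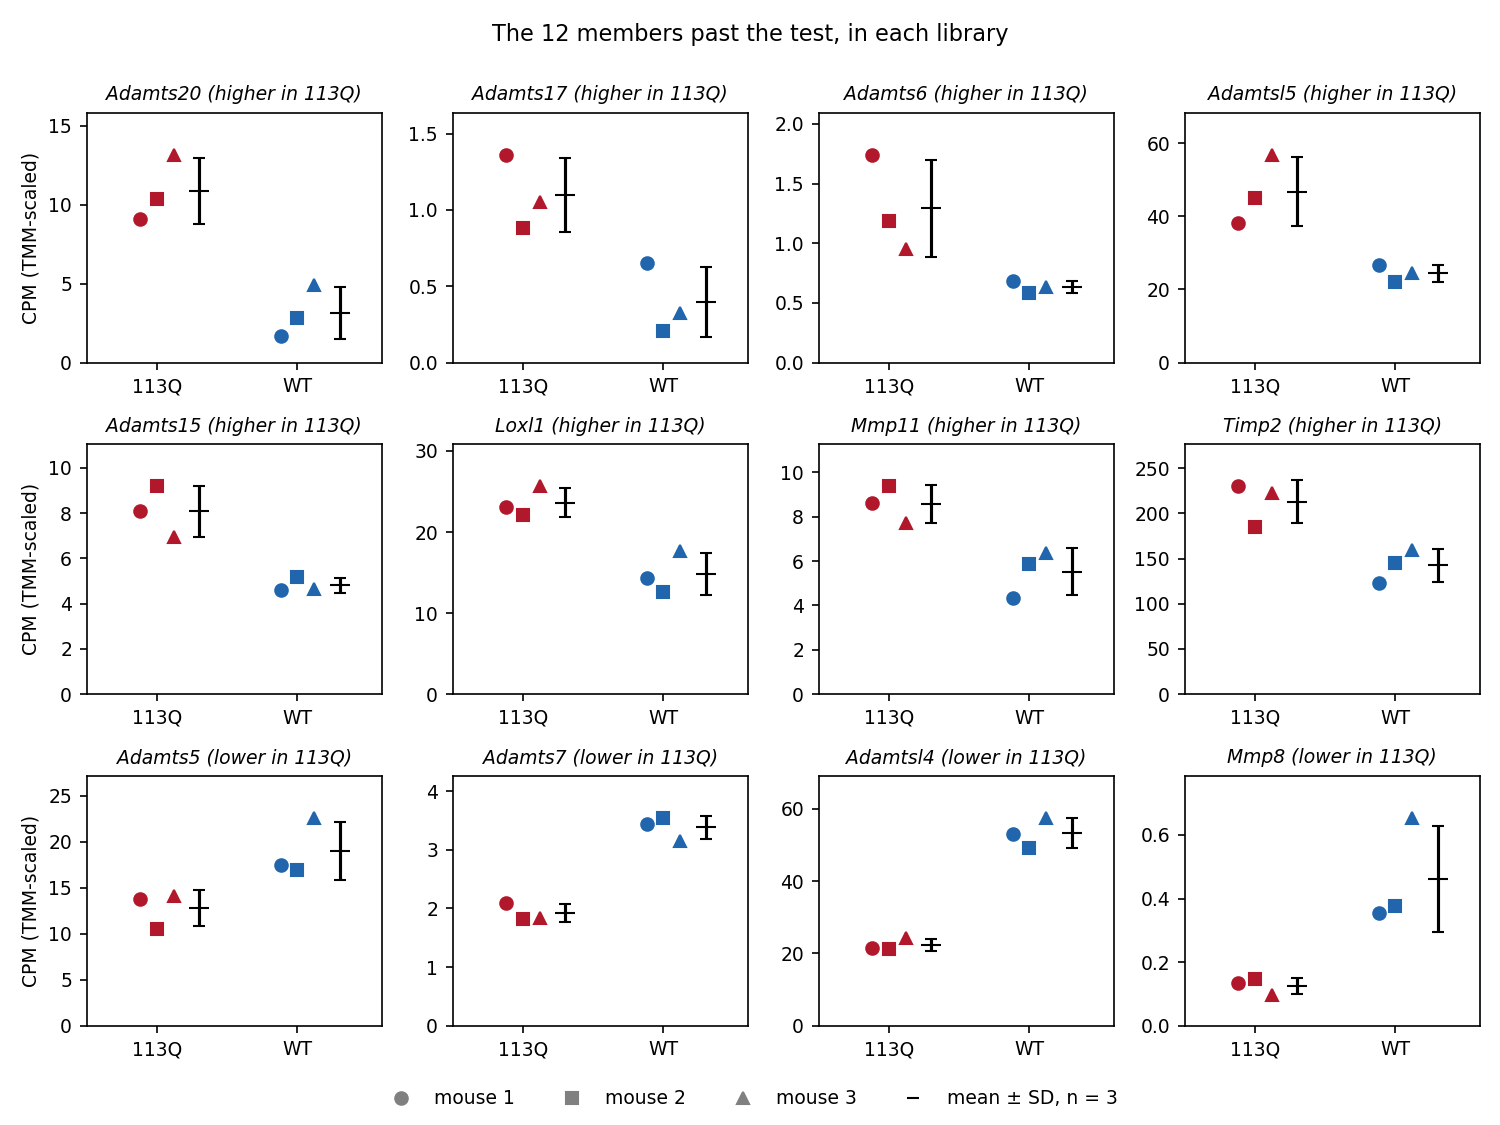
Levels of the 12 members past the test, in CPM after TMM scaling on a linear axis from 0, with 1 point per library (circle, square and triangle for mice 1, 2 and 3 of each group) and the mean ± SD of each group (n = 3) at its right. The 113Q and WT libraries do not overlap in any panel, and the scale of the panels differs, with Timp2 above 100 CPM and Mmp8 below 1 CPM in each library.

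Of 14 Mmp genes tested, Mmp11 rose, Mmp8 fell and 12 did not pass. Scaled to exon length, the most abundant was Mmp2, a secreted gelatinase, followed by the membrane-type enzyme Mmp14 in 113Q and by Mmp15 in WT. Mmp2 averaged 56.9 ± 6.03 CPM in 113Q and 53.6 ± 11.6 CPM in WT (SD, n = 3 each), a log2 fold change of 0.08 (SE 0.16, adjusted p = 0.728). Mmp14, which activates Mmp2 at the cell surface, averaged 22.2 ± 1.73 CPM in 113Q and 20.2 ± 4.28 CPM in WT (log2 fold change 0.13, SE 0.16, adjusted p = 0.55). Neither difference exceeded the spread between mice.

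Mmp11 (stromelysin-3, chr10:75923222-75936496 on the minus strand), which is activated inside the secretory pathway by furin, had 8.62, 9.38 and 7.70 CPM in the 113Q libraries and 4.32, 5.89 and 6.37 CPM in the WT libraries. The groups did not overlap, and the lowest value was that of WT mouse 1. The log2 fold change was 0.63 (SE 0.18, adjusted p = 0.0259), but the gene no longer passed when 113Q mouse 1 (adjusted p = 0.064), 113Q mouse 2 (0.0974) or WT mouse 1 (0.0596) was left out. An end of the gene shares 155 bases of exon with Chchd10 on the other strand, a mitochondrial gene with between 28017 and 41290 counts in 113Q and between 22181 and 35721 counts in WT. Reads from this stretch cannot be assigned without a strand setting.

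Mmp15, another membrane-type enzyme, had 9.86, 23.1 and 17.1 CPM in the 113Q libraries and 30.5, 26.3 and 28.0 CPM in the WT libraries. All 113Q values were below the WT values, but they spread widely, with a coefficient of variation of 39.8% in 113Q and 7.45% in WT. The difference did not pass (log2 fold change -0.76, SE 0.29, adjusted p = 0.0945). It passed without 113Q mouse 1 (log2 fold change -0.48, adjusted p = 0.0482) or 113Q mouse 2 (-1.06, adjusted p = 0.0202), in DESeq2 (adjusted p = 0.00863), with a term for epithelial transcripts (-0.97, adjusted p = 0.0498), and in the libraries without them (-1.57, adjusted p = 0.000996), where 113Q is a single mouse. With library totals alone the log2 fold change was -0.05 (adjusted p = 0.885). Mmp17, a membrane enzyme held by a lipid anchor, had 3.72, 3.12 and 1.77 CPM in 113Q and 0.296, 1.21 and 1.46 CPM in WT, without overlap between the groups (log2 fold change 1.51, SE 0.55, adjusted p = 0.0705).

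Among the less abundant Mmp genes, Mmp23, Mmp19, Mmp3, Mmp9, Mmp28 and Mmp16 had log2 fold changes between -0.17 and 0.68, and none of them passed. Mmp27, in the chromosome 9 cluster, did not pass either (log2 fold change -0.84, adjusted p = 0.265). Mmp9, the gelatinase of neutrophils and macrophages, averaged 2.09 ± 0.235 CPM in 113Q and 1.87 ± 0.767 CPM in WT, and summed macrophage markers lay at 134 to 149.7 CPM in 113Q and 116 to 159 CPM in WT. Mmp3, stromelysin-1, averaged 2.54 ± 0.640 CPM in 113Q and 2.07 ± 1.08 CPM in WT.

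The Mmp genes were also set out by their position in the genome, a grouping chosen after the values were seen. A cluster of 10 Mmp genes spans 427.1 kb of chromosome 9 (7272514 to 7699585, mm10), in the order Mmp13, Mmp12, Mmp1b, Mmp3, Mmp1a, Mmp10, Mmp8, Mmp27, Mmp20 and Mmp7. Their summed level per kb of exon was between 1.28 and 2.98 CPM per kb in 113Q and between 1.13 and 2.29 CPM per kb in WT. The 13 Mmp genes elsewhere summed to between 33.3 and 36.1 CPM per kb in 113Q and between 29.3 and 38.3 CPM per kb in WT. Mmp10, Mmp1a and Mmp1b, all within the cluster, were at 0 in every library, which allows up to 0.0335 CPM in a 113Q library and 0.0888 CPM in a WT library. Mmp12, Mmp13 and Mmp20 of the cluster and Mmp21, Mmp24 and Mmp25 elsewhere were too low to test.

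The promoters of the cluster also differed from those of the other members in short sequence motifs, a comparison made after the levels were seen. Windows of 300 bases, from 250 before to 50 after a gene's start, were searched on both strands for TGANTCA, the site bound by AP-1 (Fos and Jun) factors, for TATAAA, the TATA box, and for GGGCGG, a GC box. No motif overlapped another kind of motif in a member's window. TGANTCA was present for 8 of the 10 genes of the cluster, for 0 of 8 Mmp genes elsewhere and for 0 of 19 other members with a promoter, and in 7.81% of all 32851 promoters. In Mmp20 the match was TGAATCA, and in the other genes of the cluster that matched it had C or G in the middle. TATAAA was present for 9 of the 10 genes of the cluster, 1 of 8 Mmp genes elsewhere and 2 of 19 other members (13.6% of all promoters). The GC box was present for 0 of the 10 genes of the cluster, 7 of 8 Mmp genes elsewhere and 16 of 19 other members (35.7% of all promoters). Mmp2, Mmp9, Mmp16, Mmp17 and Mmp19, which lie elsewhere, had no promoter available and were not searched. A gene was counted if any of its windows held the motif, whereas the percentages are of single promoters. A match is a description of the sequence, not of a bound site.

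The windows below show this contrast between Mmp3, the most abundant gene of the cluster, Mmp10, at 0 in every library, and 3 members with GC boxes, of which Mmp14 did not pass and Mmp11 and Timp2 rose. They run 5′ to 3′ on the gene's strand, from RefSeq on GRCm38.p6, with the 3 motifs in capitals. The RefSeq start of Mmp11 lies 3994 bases and that of Timp2 329 bases inside the GENCODE gene given with their values, while that of Mmp3 is the same.
Mmp3, chr9:7445572-7445871, plus strand: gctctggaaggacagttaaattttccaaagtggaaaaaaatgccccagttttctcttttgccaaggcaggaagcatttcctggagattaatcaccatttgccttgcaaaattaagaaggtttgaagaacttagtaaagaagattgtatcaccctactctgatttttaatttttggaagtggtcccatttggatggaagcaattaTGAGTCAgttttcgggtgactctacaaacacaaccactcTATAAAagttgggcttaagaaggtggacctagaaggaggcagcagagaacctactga
Mmp10, chr9:7502092-7502391, plus strand: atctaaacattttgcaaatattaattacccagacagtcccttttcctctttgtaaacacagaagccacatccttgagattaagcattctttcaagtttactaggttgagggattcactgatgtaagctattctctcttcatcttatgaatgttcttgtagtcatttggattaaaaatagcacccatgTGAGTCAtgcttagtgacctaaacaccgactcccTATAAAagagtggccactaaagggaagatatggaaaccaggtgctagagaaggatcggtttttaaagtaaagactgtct
Mmp14, chr14:54431348-54431647, plus strand: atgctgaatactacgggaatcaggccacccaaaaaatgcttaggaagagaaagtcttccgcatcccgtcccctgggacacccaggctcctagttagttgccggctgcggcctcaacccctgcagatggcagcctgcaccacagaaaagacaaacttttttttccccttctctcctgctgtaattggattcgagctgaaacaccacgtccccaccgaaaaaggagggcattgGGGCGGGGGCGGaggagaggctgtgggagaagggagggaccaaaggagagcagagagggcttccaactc
Mmp11, chr10:75932453-75932752, minus strand: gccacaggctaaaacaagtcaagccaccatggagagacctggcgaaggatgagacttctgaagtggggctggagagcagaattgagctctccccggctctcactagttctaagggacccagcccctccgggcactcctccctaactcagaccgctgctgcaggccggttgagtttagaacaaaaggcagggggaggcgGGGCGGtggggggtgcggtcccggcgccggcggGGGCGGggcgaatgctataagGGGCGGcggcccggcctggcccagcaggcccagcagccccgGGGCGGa
Timp2, chr11:118355362-118355661, minus strand: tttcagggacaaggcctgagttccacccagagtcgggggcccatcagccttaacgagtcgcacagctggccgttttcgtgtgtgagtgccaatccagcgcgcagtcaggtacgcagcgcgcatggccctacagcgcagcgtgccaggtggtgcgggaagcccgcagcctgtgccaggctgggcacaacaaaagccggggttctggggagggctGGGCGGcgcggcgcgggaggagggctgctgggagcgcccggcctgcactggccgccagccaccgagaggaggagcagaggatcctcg
In Mmp3 the AP-1 motif began 46 bases and the TATA box 7 bases before the start, and in Mmp10 they began 63 and 29 bases before it. Mmp14 had 2 GC boxes in a row, Mmp11 had 4 and Timp2 had 1.

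**Figure D2:**
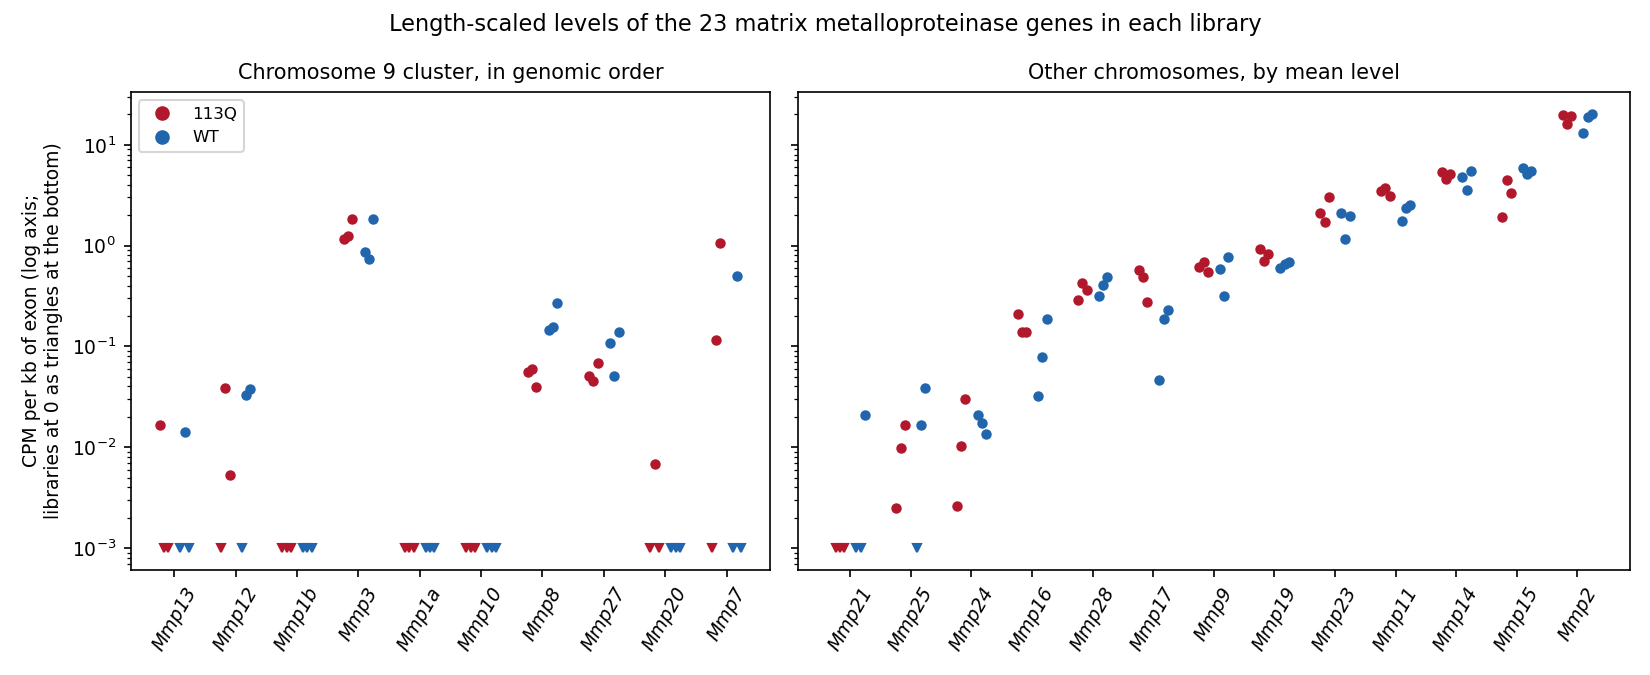
Level of each of the 23 Mmp genes in every library, in CPM per kb of exon on a log axis, with the chromosome 9 cluster in genomic order at the left and the other 13 genes by mean level at the right. Libraries at 0 are triangles at the bottom. By group mean, Mmp3 is the highest gene of the cluster in 113Q and in WT and lies below Mmp2, Mmp14, Mmp15, Mmp11 and Mmp23 at the right.

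Of the cluster, Mmp8, Mmp7, Mmp3 and Mmp27 were tested. Mmp8, the neutrophil collagenase (chr9:7558456-7568485, plus strand), had 12, 13 and 9 counts in the 113Q libraries and 12, 20 and 34 counts in the WT libraries, which correspond to 0.134, 0.145 and 0.0965 CPM in 113Q and 0.355, 0.377 and 0.655 CPM in WT. After scaling the groups did not overlap, although the counts of both mice numbered 1 were equal. The log2 fold change was -1.88 (SE 0.45, adjusted p = 0.0133), and it no longer passed when 113Q mouse 3 (adjusted p = 0.0654) or WT mouse 3 (0.0699) was left out. Summed neutrophil markers lay at 1.09 to 2.94 CPM in 113Q and 1.94 to 2.87 CPM in WT, with Mpo at 0 in every library. The 113Q maximum is mostly Ltf, at 2.0 CPM in mouse 3, a library with epithelial transcripts. S100a8 averaged 0.122 ± 0.0853 CPM in 113Q and 0.397 ± 0.324 CPM in WT (log2 fold change -1.64, adjusted p = 0.125). The other tested markers went both ways, with log2 fold changes of -0.47 for S100a9, -0.50 for Cxcr2 and 0.13 for Csf3r. Ltf averaged 0.903 ± 1.01 CPM in 113Q and 0.381 ± 0.286 CPM in WT. The 5 neutrophil markers that could be tested had adjusted p values of at least 0.125, and their part in the Mmp8 result was not tested.

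Mmp7, matrilysin, a protease of glandular epithelium, was seen in the 3 libraries with Epcam of at least 1 CPM and at 0 in the other 3. It had 0, 11 and 105 counts in the 113Q libraries and 0, 28 and 0 counts in the WT libraries. Epcam had 0, 742 and 948 counts in the same 113Q libraries and 0, 203 and 2 counts in the same WT libraries. The summed level of the 12 epithelial markers was 1.85, 56.0 and 177 CPM in 113Q and 2.58, 118 and 3.93 CPM in WT. Mmp7 did not differ beyond this spread between genotypes (log2 fold change 1.16, SE 2.00, adjusted p = 0.699).

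Among the inhibitors, Timp2 rose and the other 3 did not pass. Timp2 and Timp3 were the most abundant of all 56 members per kb of exon in both groups, at 54.6 and 35.7 CPM per kb in 113Q and 36.6 and 35.9 CPM per kb in WT. Timp2 (chr11:118301069-118355740, minus strand) had 230.1, 185 and 223 CPM in the 113Q libraries and 123, 145 and 159 CPM in the WT libraries. Every 113Q library was above every WT library. The log2 fold change was 0.58 (SE 0.12, adjusted p = 0.00704), 1.49 times.

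Timp3, which stays bound to the matrix and also inhibits Adamts proteases, had 182, 166 and 181 CPM in 113Q and 136, 198 and 198 CPM in WT. The WT libraries lay on both sides of the 113Q libraries (log2 fold change -0.01, SE 0.15, adjusted p = 0.972). With library totals alone Timp3 was at 0.71 (adjusted p = 0.00303). Timp4 averaged 19.1 ± 7.24 CPM in 113Q and 24.1 ± 5.99 CPM in WT (log2 fold change -0.33, adjusted p = 0.444). Timp1, an inhibitor known to be induced in injured tissue, was low, at 0.949, 0.872 and 0.622 CPM in 113Q and 0.148, 0.377 and 0.501 CPM in WT. Its groups did not overlap, but the difference did not pass (log2 fold change 1.22, SE 0.45, adjusted p = 0.0701).

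Ratios within a library do not depend on the scaling between libraries. The ratio of Timp2 to Mmp2, in counts per kb of exon, was 2.97, 2.93 and 2.97 in 113Q and 2.41, 1.99 and 2.01 in WT. Every 113Q library was higher, and the 3 differed by less than the WT libraries did. Timp2 relative to Timp3 was 1.61, 1.42 and 1.56 in 113Q and 1.15, 0.928 and 1.02 in WT. Of the summed inhibitor transcripts, Timp2 made up 56.3% to 59.3% in 113Q and 45.5% to 50.7% in WT. The ratio of Timp2 to Mmp14 overlapped between groups (10.8 ± 0.405 in 113Q and 8.17 ± 1.99 in WT, SD, n = 3 each), as did that of Mmp14 to Mmp2 (0.274 ± 0.00847 in 113Q and 0.274 ± 0.0852 in WT). The ratios, here and for the other families, are given as values with no test. An exact two-sided permutation test of 3 against 3 could not go below 0.1. The pairs were picked by hand, and the share of other gene pairs without overlap was not computed.

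**Figure D3:**
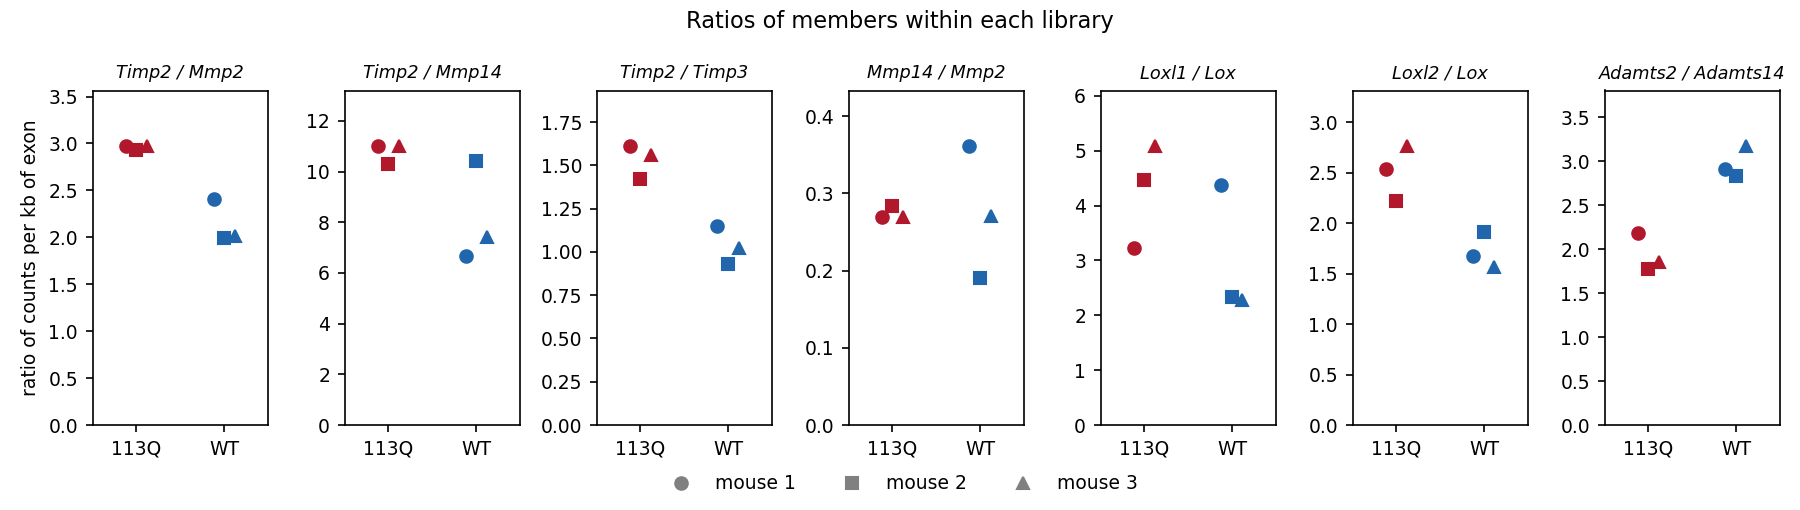
Ratios of pairs of members within each library, in counts per kb of exon, on linear axes from 0, with 1 symbol per mouse. Timp2 over Mmp2, Timp2 over Timp3 and Loxl2 over Lox are higher in every 113Q library than in any WT library, Adamts2 over Adamts14 is lower, and the other 3 ratios overlap.

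The 18 Adamts genes tested had a median log2 fold change of -0.18, with 4 higher, 2 lower and 12 not past the test. Adamts20 (chr15:94270163-94465418, minus strand), a versican-cutting enzyme known in the mouse from the belted coat mutation, had 9.07, 10.3 and 13.2 CPM in the 113Q libraries and 1.66, 2.81 and 4.95 CPM in the WT libraries. Its WT values differed among themselves, but all lay below the 113Q values. With a log2 fold change of 1.78 (SE 0.38, adjusted p = 0.0111) it rose 3.44 times. Adamts15 (chr9:30899155-30922452, minus strand), also a versican-cutting enzyme, had 8.11, 9.19 and 6.94 CPM in 113Q and 4.59, 5.19 and 4.66 CPM in WT (log2 fold change 0.75, SE 0.16, adjusted p = 0.00742).

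Adamts5 (chr16:85856173-85901828, minus strand), an aggrecanase that also cuts versican and whose inhibitor is Timp3, had 13.8, 10.5 and 14.1 CPM in 113Q and 17.5, 16.9 and 22.6 CPM in WT. The groups did not overlap, and Adamts5 fell by 0.57 on the log2 scale (SE 0.16, adjusted p = 0.0226), but its sign reversed with library totals alone (0.15), and the call was lost without 113Q mouse 2 or WT mouse 3 (highest adjusted p = 0.0805). Its neighbour on chromosome 16, Adamts1, was the most abundant Adamts gene per kb of exon. It averaged 45.5 ± 4.24 CPM in 113Q and 54.6 ± 15.6 CPM in WT (log2 fold change -0.26, SE 0.19, adjusted p = 0.338). Adamts9 (9.12 ± 1.12 CPM in 113Q and 11.9 ± 2.45 CPM in WT) and Adamts8 (4.54 ± 1.92 CPM in 113Q and 6.31 ± 3.50 CPM in WT) did not pass either. The substrate Vcan (versican) averaged 13.7 ± 3.94 CPM in 113Q and 10.7 ± 4.18 CPM in WT (adjusted p = 0.443).

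Of the procollagen N-proteinases, which remove the amino-terminal propeptide of fibrillar collagens, none of Adamts2, Adamts3 and Adamts14 passed. Adamts2 averaged 13.8 ± 2.19 CPM in 113Q and 18.8 ± 4.08 CPM in WT (log2 fold change -0.46, SE 0.18, adjusted p = 0.0872, with 0.27 for library totals alone). Adamts14 averaged 5.07 ± 0.274 CPM in 113Q and 4.53 ± 0.846 CPM in WT. Their ratio within a library, per kb of exon, was 2.18, 1.78 and 1.85 in 113Q and 2.91, 2.83 and 3.17 in WT, so that every 113Q library was lower. Adamts3 had 2.95, 1.52 and 1.44 CPM in 113Q and 0.592, 1.70 and 0.635 CPM in WT (log2 fold change 1.00, SE 0.48, adjusted p = 0.148).

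Adamts7 (chr9:90163069-90208071, plus strand), which cuts the cartilage protein COMP, had 2.1, 1.82 and 1.83 CPM in 113Q and 3.44, 3.55 and 3.16 CPM in WT. Both groups were tight, and the log2 fold change was -0.82 (SE 0.19, adjusted p = 0.0104), but -0.09 (adjusted p = 0.68) with library totals alone. The gene shares 122 bases of exon with Tbc1d2b on the other strand. Tbc1d2b had between 1873 and 2036 counts in 113Q and between 533 and 1059 counts in WT. Adamts7 had between 163 and 188 counts in 113Q and between 116 and 188 counts in WT. Without a strand setting, reads from the shared stretch cannot be assigned here either. Adamts12, a close relative of Adamts7, did not pass (2.47 ± 0.413 CPM in 113Q and 3.27 ± 1.45 CPM in WT). Adamts6 (chr13:104287835-104496695, plus strand) and Adamts17 (chr7:66839735-67153171, plus strand) were low and rose. Adamts6 had 1.74, 1.19 and 0.954 CPM in 113Q and 0.681, 0.585 and 0.635 CPM in WT (log2 fold change 1.03, SE 0.32, adjusted p = 0.0367). Adamts17 had 1.36, 0.883 and 1.05 CPM in 113Q and 0.651, 0.208 and 0.327 CPM in WT (log2 fold change 1.5, SE 0.45, adjusted p = 0.0317). Each lost its call in 5 of the 6 fits that left out a mouse, Adamts6 in all but that without 113Q mouse 3 and Adamts17 in all but that without WT mouse 1, with adjusted p values up to 0.121 and 0.0988.

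Adamts10, which binds fibrillin, averaged 15.5 ± 1.02 CPM in 113Q and 12.9 ± 2.27 CPM in WT (log2 fold change 0.26, SE 0.14, adjusted p = 0.183). Adamts4, Adamts16, Adamts18 and Adamts19 were below 4 CPM in every library and did not pass, with log2 fold changes between -1.12 and 1.46. Adamts13, the plasma protease of von Willebrand factor, had 3 counts in all 113Q libraries together and 1 in all WT libraries together, and was not tested.

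Of the 5 Adamts-like genes, Adamtsl5 rose, Adamtsl4 fell and 3 did not pass. Adamtsl4 (chr3:95676201-95687917, minus strand), which binds fibrillin and is known in humans from displacement of the lens, had 21.4, 21.2 and 24.4 CPM in the 113Q libraries and 53.1, 49.3 and 57.6 CPM in the WT libraries. No WT library came near a 113Q library, and Adamtsl4 was 2.39 times lower (log2 fold change -1.26, SE 0.10, adjusted p = 6.06e-05). With library totals alone it was still lower, at -0.54 (adjusted p = 0.00133). Summed myofibre and endothelial markers were also lower in 113Q, and their part in this fall was not tested.

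Adamtsl5 (chr10:80339110-80348412, minus strand), another fibrillin-binding protein, had 38.3, 45.1 and 56.8 CPM in the 113Q libraries and 26.6, 22.1 and 24.4 CPM in the WT libraries. The 113Q libraries were all higher but spread more than the WT libraries, with coefficients of variation of 20.1% in 113Q and 9.18% in WT. The log2 fold change was 0.94 (SE 0.15, adjusted p = 0.00204), 1.92 times. Per kb of exon, Adamtsl5 came after Timp2 and Timp3 in 113Q, at 22.0 CPM per kb, and after Timp2, Timp3, Mmp2 and Adamtsl4 in WT, at 11.5 CPM per kb. Adamtsl1 had 5.87, 7.11 and 4.62 CPM in 113Q and 3.41, 3.79 and 4.62 CPM in WT (adjusted p = 0.0662), and Adamtsl2 and Adamtsl3 did not pass.

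**Figure D4:**
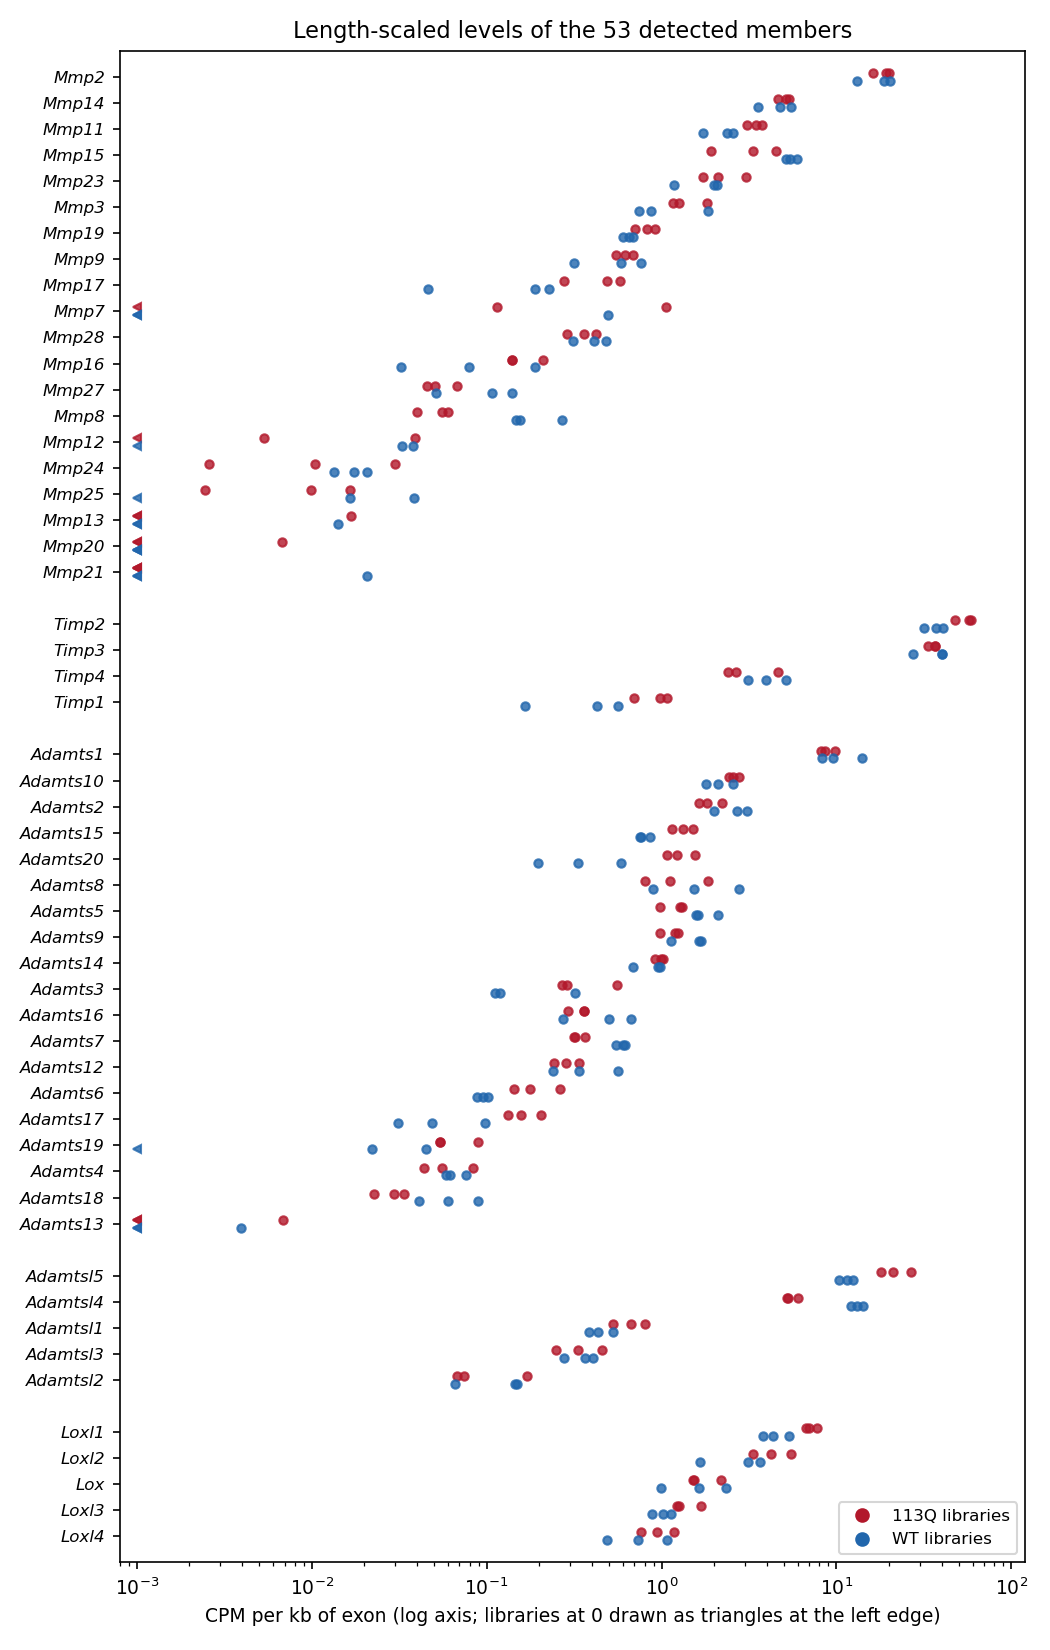
Level of each of the 53 members with at least 1 count, in CPM per kb of exon on a log axis, with 1 point per library (113Q and WT in separate colours) and libraries at 0 as triangles at the left edge. Timp2 and Timp3 lie at the right in both groups, and Adamtsl5 and Adamtsl4 are clearly separated between 113Q and WT.

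Among the crosslinking enzymes Loxl1 rose and the other 4 lysyl oxidases did not pass, with log2 fold changes between 0.06 and 0.67 over the 5 genes. Loxl1 (chr9:58287738-58313186, minus strand), known for elastic fibre maintenance, had 23.1, 22.1 and 25.7 CPM in the 113Q libraries and 14.4, 12.6 and 17.7 CPM in the WT libraries. Every 113Q library was above every WT library (log2 fold change 0.67, SE 0.14, adjusted p = 0.00639), 1.59 times. Lox, the founding enzyme of the family, averaged 8.31 ± 1.82 CPM in 113Q and 7.94 ± 3.23 CPM in WT (log2 fold change 0.06, SE 0.31, adjusted p = 0.9). Its sign reversed without 113Q mouse 1 (-0.13) or WT mouse 1 (-0.20).

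Loxl2, which acts on basement membrane collagen, had 29.8, 18.1 and 22.9 CPM in 113Q and 9.0, 16.9 and 19.8 CPM in WT (log2 fold change 0.63, SE 0.32, adjusted p = 0.185). WT mouse 1 was again the lowest, and without it the log2 fold change was 0.36. Relative to Lox, per kb of exon, Loxl2 was at 2.53, 2.22 and 2.76 in 113Q and 1.67, 1.91 and 1.56 in WT, without overlap. The ratio of Loxl1 to Lox overlapped (4.25 ± 0.948 in 113Q and 2.99 ± 1.19 in WT). Loxl3 averaged 5.69 ± 1.06 CPM in 113Q and 4.14 ± 0.507 CPM in WT (adjusted p = 0.098), and Loxl4 3.68 ± 0.789 CPM in 113Q and 2.94 ± 1.13 CPM in WT (adjusted p = 0.454).

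**Figure D5:**
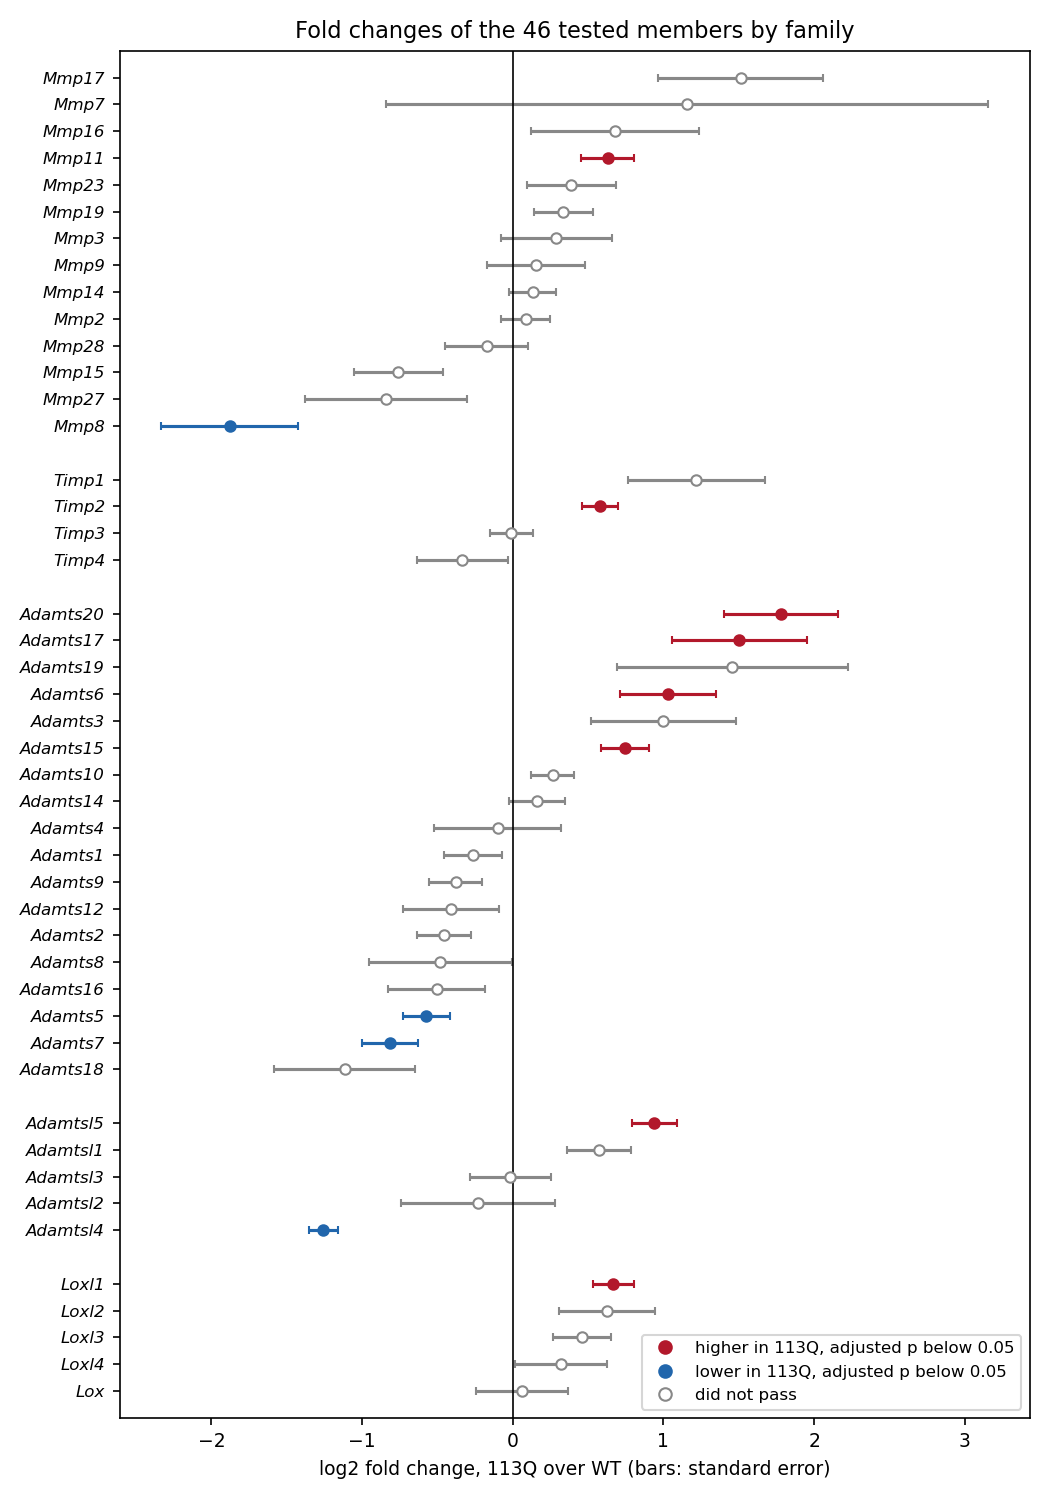
Log2 fold change of 113Q over WT with its standard error for the 46 tested members, grouped by family and ordered within each, with the genes that rose, fell or did not pass in separate colours. Adamtsl4 has the shortest error bar among the 4 genes that fell, and Mmp7 the widest error bar of all.

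Hydroxylation and folding of collagen chains come before crosslinking by lysyl oxidases. Over all the lists of other matrix genes together, 32 of 99 tested genes passed (32.3%), near the 34.6% of all genes tested. The lists differed. Of 13 tested genes of collagen modification and other crosslinking, 10 rose, 2 fell and 1 did not pass (92.3% called), with a median log2 fold change of 0.57. The number that rose was 7 to 10 when a mouse was left out and 9 with a term for epithelial transcripts. The libraries without these transcripts hold a single 113Q mouse, so no count is given for them. P4ha1, a catalytic subunit of collagen prolyl hydroxylase, averaged 38.8 ± 4.11 CPM in 113Q and 14.9 ± 3.30 CPM in WT (log2 fold change 1.38, adjusted p = 0.000603). Its alternative subunit P4ha2 averaged 10.4 ± 0.488 CPM in 113Q and 24.5 ± 3.07 CPM in WT (log2 fold change -1.23, adjusted p = 0.000167), so the forms changed in opposite directions, also with library totals alone (2.1 for P4ha1 and -0.51 for P4ha2).

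Plod2, a lysyl hydroxylase that sets the type of crosslink, averaged 14.7 ± 0.442 CPM in 113Q and 6.32 ± 0.639 CPM in WT (log2 fold change 1.22, adjusted p = 0.000203). Crtap, a partner of prolyl 3-hydroxylase, averaged 21.9 ± 1.08 CPM in 113Q and 9.43 ± 0.647 CPM in WT (log2 fold change 1.21, adjusted p = 9.26e-05). Plod1 did not pass (42.1 ± 1.93 CPM in 113Q and 42.5 ± 1.04 CPM in WT, adjusted p = 0.908). Tgm2, a transglutaminase that crosslinks proteins through glutamine and lysine, averaged 272 ± 9.44 CPM in 113Q and 199 ± 23.2 CPM in WT (log2 fold change 0.45, adjusted p = 0.00871). Of the other genes of the list Plod3, Ppib, P4ha3, Fkbp14, Serpinh1 and Fkbp10 rose, and P4hb fell, with a reversed sign (0.20) for library totals alone.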

How the data were processed

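The deposited table has 27131 gene rows and 1 column for each of 6 mice, and its unit is the estimated count, which the authors did not scale for depth. The submitters' processing notes list Cuffdiff 2.1.1 and Cufflinks, with TopHat2 2.0.9 and Bowtie2 2.1.0 as aligners, cutadapt, FastQC 0.10.0 and mm10. Neither annotation nor strand setting is stated in these notes. Fractional values made up 5.38% to 5.96% of the deposited values of a library.

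Counts were rounded and compared, 113Q over WT, on the whole table with edgeR 4.0.16 in R 4.3.3. The steps were filterByExpr (minimum count 10), TMM factors and a robust two-sided quasi-likelihood F test, with Benjamini-Hochberg adjustment over 16960 genes and a threshold of 0.05. Each standard error was derived from F, as the log2 fold change over its square root. Counting error alone leaves 3 counts as the floor of a library, 0.0322 to 0.0335 CPM in 113Q and 0.0566 to 0.0888 CPM in WT.

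Named with values were members past the threshold and those averaging 5 CPM or more; further members were named to account for their families. The members, the other matrix genes and the cell type markers were chosen with earlier results of these data known. GENCODE M21, built on the same assembly as mm10, gave exon lengths, gene positions and overlapping exons, and there all 56 members matched. Promoters come from RefSeq (GRCm38.p6), which had 37 of the 56 members in the table used. Alternatives were DESeq2 1.42.0, voom of limma 3.58.1, other scalings and filters, leaving out each mouse, a replicate block, and 2 fits on epithelial transcripts added after seeing the data. The scripts were tested on simulated counts.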

Additional observations from a re-analysis of the deposited data

How the results depend on the processing

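Of 359 values of the named members under the alternatives, 296 kept their direction and side of the threshold, 31 kept the direction but lost the call, 12 gained a call and 20 changed sign. Library totals in place of TMM factors gave 26 of 46 members higher and 2 lower, where 11015 of all 16960 genes tested were higher. The median log2 fold change of the members was then 0.87. Library totals turned Adamts1 (0.46), Adamts2 (0.27), Adamts5 (0.15), Adamts9 (0.34), Adamts8 (0.25), Timp3 (0.71) and Timp4 (0.38) positive, since this choice moves all genes by 0.72. Leaving out 1 mouse called 4325 to 5402 of 17229 to 17452 tested genes in either direction. Among the members it gave 5 to 8 higher (5 without 113Q mouse 1 or 2), 2 to 6 lower (2 without WT mouse 3) and a median of 0.10 to 0.33. It changed the sign of Lox (-0.20 without WT mouse 1 and -0.13 without 113Q mouse 1, to 0.39), Mmp2 (-0.08 without WT mouse 1, to 0.21), Mmp14 (-0.02 without WT mouse 2, to 0.28), Adamts8 (from -0.86 to 0.03 without WT mouse 2) and Timp3 (from -0.17 to 0.04 without 113Q mouse 2 and 0.08 without WT mouse 2 or 3), none of which had a call. Timp3 was also at 0.01 by voom, without the filter and with the replicate block. With the 3 libraries that lacked epithelial transcripts, a single 113Q mouse assumed to vary like the WT mice remained. The median of the members was then 0.29, with Adamts8 at 0.58 and Timp3 at 0.12. The replicate block gave 6 higher and 3 lower with a median of 0.20, and called 4737 of all 16960 genes in either direction. Deviations of mice with the same number correlated at 0.198, 0.236 and -0.274, so the numbers were not taken to pair the mice. DESeq2 called 10 higher and 5 lower of 53 members fitted, and 6458 of 21926 genes in either direction. The causes of these changes were not tested, except the construction of the scaling. Members of few counts, such as Mmp8, are limited by depth.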

Other observations

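Among matrix genes outside the families described, a list of cathepsins that also holds the inhibitor Cst3 and the collagen receptor Mrc2 had 3 of 8 tested genes higher in 113Q and 5 not past the test (37.5% called, against 34.6% of all genes tested). The number higher was 3 to 5 when a mouse was left out and 3 with a term for epithelial transcripts. Ctsb, a cysteine protease of lysosomes, averaged 552 ± 12.3 CPM in 113Q and 258 ± 43.0 CPM in WT (SD, n = 3 each; log2 fold change 1.10, edgeR adjusted p = 0.000378). Ctsl and Ctsz also rose (0.53 and 0.44 on the log2 scale), and Ctsk, the collagen-cutting cathepsin, did not pass (0.43, adjusted p = 0.1). In the plasminogen and serine protease system Prss23, a secreted serine protease, averaged 21.3 ± 0.970 CPM in 113Q and 7.99 ± 2.11 CPM in WT (1.42, adjusted p = 0.000876). Serpine2, an inhibitor of thrombin and other serine proteases, averaged 79.0 ± 8.20 CPM in 113Q and 190.3 ± 15.6 CPM in WT (-1.27, adjusted p = 8.45e-05). The activators Plat and Plau did not pass (0.20 and -0.06, the sign of Plau turning with library totals, 0.66).

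Of 8 tested genes that inhibit or induce metalloproteinases by other routes, Spock2 and Tfpi rose and Spock1 and Bsg fell (50% called), with 1 to 2 higher when a mouse was left out. Bsg, a surface protein known to induce Mmp genes, averaged 303 ± 21.8 CPM in 113Q and 501 ± 31.5 CPM in WT (-0.73, adjusted p = 0.000621), but was at -0.01 with library totals alone. Of 26 tested proteoglycans and elastic fibre genes, Efemp2, Mfap4 and Emilin1 rose and 23 did not pass (11.5% called, against 34.6% of all genes). The number higher was 1 to 7 when a mouse was left out and 18 with library totals alone, a setting that called 11015 of all 16960 genes higher. In the TGF-beta list 2 of 15 rose (Ski and Tgfb2) and 2 fell (26.7% called). Leaving out a mouse gave 1 to 4 higher and 1 to 3 lower, and library totals alone gave 12 higher. Smad3, which carries the TGF-beta signal to the nucleus, averaged 129 ± 13.3 CPM in 113Q and 431 ± 30.4 CPM in WT (-1.74, adjusted p = 2.24e-05), and was lower with library totals too (-1.02). Smad4 fell by 0.31 on the log2 scale, with a reversed sign (0.41) under library totals. Of 9 tested ADAM sheddases, Adam33 and Adam17 rose (22.2% called), and 7 were higher with library totals alone. In the list of astacin proteases and procollagen processing, which holds Bmp1, Pcolce and Furin, 0 of 7 tested genes passed. Library totals alone gave 5 of them higher.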
